A study of Mus musculus with 2 samples.

Results

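The cells described here are wound myeloid cells that carried transcripts of Inhba together with Nt5e, Tnfrsf9 or Slfn4. They came from a single-cell RNA data set of monocytes and macrophages from mouse skin wounds taken on day 6 after injury, with 1 library of non-diabetic and 1 library of diabetic mice, each made from cells pooled from 2 mice. The labels name neither the strains nor the diabetic model, so library, strain and diabetes cannot be told apart, and no difference below has a replicate check. Barcodes were kept where 500 or more genes were detected and mitochondrial transcripts made up less than 10% of the UMIs (unique molecular identifiers, 1 per captured transcript). Members, called rule cells below, were chosen by their measured UMI counts, namely 3 or more Inhba UMIs, 2 or more UMIs of Nt5e, Tnfrsf9 and Slfn4 together, and under 5 UMIs of Stfa3 and Fst together. The rule was met by 133 of 1123 non-diabetic cells (11.8%, exact binomial interval 10.0% to 13.9%). In the diabetic library it was met by 38 of 1755 cells (2.17%, 1.54% to 2.96%). The reference for the non-diabetic rule cells was the other 990 filtered cells of that library.

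Inhba encodes the beta A subunit that dimerises to form activin A, a ligand of the TGF-beta family that is induced in wounded skin. Fst encodes follistatin, which binds activin and blocks it. Nt5e encodes CD73, the surface enzyme that turns AMP into adenosine, Tnfrsf9 encodes the costimulatory receptor 4-1BB (CD137), and Slfn4 belongs to the Schlafen family of myeloid and interferon-responsive genes. Monocytes that enter a wound first carry Ly6c2 and Ccr2 and later take on macrophage features, and wound macrophages are a known source of chemokines, prostaglandin E2 and growth factors.

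Because the rule read UMI counts of these same cells, every level below is a description, and no test was made. Levels are UMIs summed over the cells of a group and divided by the group's total UMIs, in the usual CPM unit. All intervals are 95% intervals of counting error alone. They treat UMIs as independent and leave out the variation between cells and between mice. The rule cells summed to 1764720 UMIs and the other cells to 13664553. Depth was close in both groups, with a median of 13450 UMIs and 2727 genes in rule cells against 14197.5 UMIs and 3144 genes in other cells. The median mitochondrial share was 3.05% in rule cells against 3.58% in other cells. The libraries shared 6 barcodes, 1 of them among filtered cells and 0 among rule cells, and Scrublet marked 2 non-diabetic and 4 diabetic cells as doublets, 0 of them rule cells. Those are 0.178% and 0.228% of the cells, so doublets may remain.

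The genes of the rule spread widely among the members. Inhba counted from 3 to 144 UMIs per rule cell, with a median of 23. Nt5e was found in 104 of the 133 cells (78.2%), Slfn4 in 78 (58.6%) and Tnfrsf9 in 68 (51.1%), and 24 cells held all 3 companions. The thresholds cut through a continuum in places. At the Inhba threshold, 7 members held exactly 3 UMIs, and 13 cells that met the other conditions held 2. At the companion threshold, 16 members held exactly 2 companion UMIs, and 8 cells with enough Inhba held 1 and 24 held none. The condition on Stfa3 and Fst hardly acted in the non-diabetic library, where 128 members held 0 such UMIs and 2 cells failed on that condition alone, against 24 in the diabetic library.

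**Figure D1:**
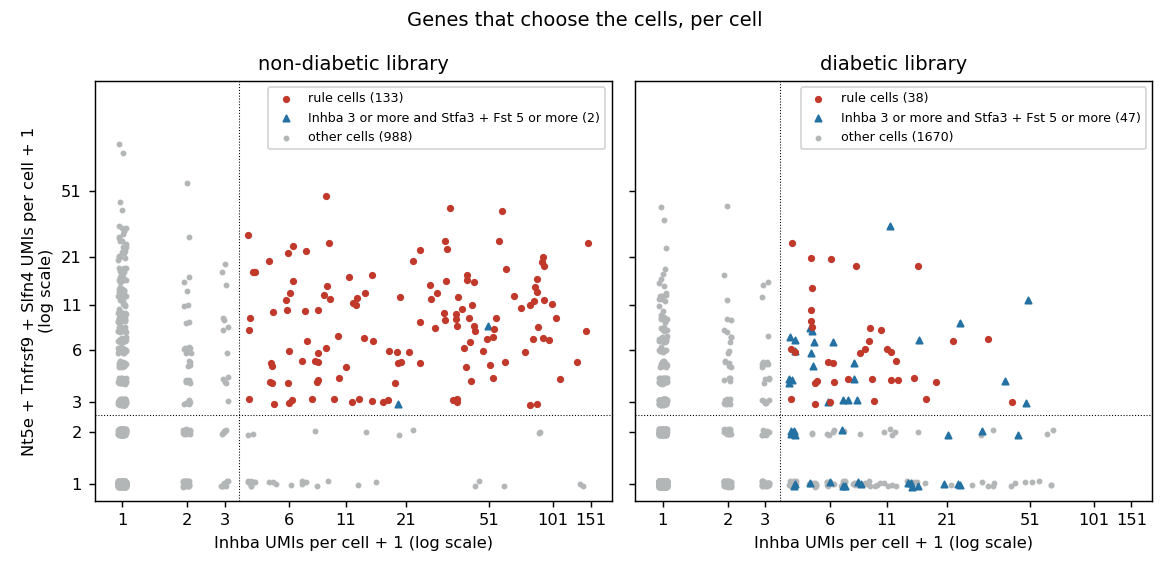
Inhba UMIs per cell (horizontal, log scale) against the summed UMIs of Nt5e, Tnfrsf9 and Slfn4 (vertical, log scale) for every filtered cell, in the non-diabetic library (left) and the diabetic library (right), with 1 added to each count and small jitter. Dotted lines mark the thresholds of the rule; the 133 non-diabetic rule cells reach 144 Inhba UMIs, and most diabetic cells with Inhba lie in other regions or carry Stfa3 or Fst.

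Inhba reached 2519 CPM in rule cells and 69.4 CPM in other cells, and 470.0 CPM in the 38 diabetic rule cells against 65.6 CPM in the other diabetic cells. Nt5e stood at 228 CPM in rule cells against 45.4 CPM in other cells, and Tnfrsf9 at 311 against 44.7 CPM. Slfn4, at 190 CPM in rule cells against 102 CPM in other cells, was only 1.86-fold higher (1.64 to 2.09), although the rule used it. It was carried at 307 CPM by the 325 non-diabetic cells that had enough companion UMIs but too little Inhba. Slfn4 is itself a companion, so this level is partly set by the selection. Pdpn, the glycoprotein podoplanin and not a gene of the rule, stood at 1000.2 CPM in rule cells against 142 CPM in other cells (7.02-fold, 6.58 to 7.49). Per cell, Pdpn ran up to 5171 CPM with a median of 886 CPM in rule cells, and up to 2866 CPM with a median of 0 in other cells. In other cells Inhba reached 18058 CPM in the highest cell, with a median of 0, against a median of 2059 CPM in rule cells. The gene models (mm10, GENCODE M21) lie at chr13:16011851-16031621 for Inhba, chr9:88327197-88372092 for Nt5e, chr4:150914562-150946102 for Tnfrsf9 and chr11:83175186-83190216 for Slfn4, all on the plus strand, and at chr4:143267431-143299564 on the minus strand for Pdpn.

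Scaling bears on every ratio below. Cxcl2, Cxcl3 and Fth1 alone took 11.0% of the UMIs of rule cells against 3.06% of those of other cells, and CPM values are shares of a fixed total. Of 10627 genes with at least 20 UMIs over both groups, 612 (5.76%) were at least 2-fold higher and 2823 (26.6%) at least 2-fold lower in rule cells, and the median log2 ratio was -0.43. The rule used this same contrast, so nothing is read from the counts of lists against these shares. With trimmed-mean (TMM) scaling the same counts were 966 higher and 1979 lower, and the median was -0.14. Values relative to the all-gene median are therefore given beside those of gene lists.

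Neutrophil-attracting chemokines were among the abundant transcripts of these cells, with Cxcl2 ahead of every other gene and Cxcl3 behind Fth1 and Malat1. Cxcl3 reached 20136 CPM in rule cells and 1421 CPM in other cells, 14.2-fold higher (13.9 to 14.4). Its level per rule cell had a median of 18538 CPM and a 10th percentile of 233 CPM, and in other cells the median was 55.8 CPM. After thinning every cell of at least 5000 UMIs to 5000, a Cxcl3 UMI was left in 92.6% of 121 rule cells (86.3% to 96.5%) and in 40.1% of 861 other cells. In 113 cells with dendritic markers, of deeper libraries (median 20163 UMIs before thinning), the share was 22.1%. Cxcl2 alone made up 5.12% of the UMIs of rule cells against 1.54% of those of other cells, at 51231 and 15354 CPM. Cxcl1 stood at 2503 CPM in rule cells against 598 CPM in other cells. Monocyte-attracting Ccl2, at 2232 against 793 CPM, and Ccl3, at 4039.7 against 1039 CPM, were higher too. Of the 21 measured chemokines, 12 were at least 2-fold higher and 2 lower, with a median log2 ratio of 1.49 (1.92 relative to all genes). The lower pair was Ccl17 and Ccl22, at 0 and 0.567 CPM in rule cells against 23.0 and 28.7 CPM in other cells.

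Single cells carried some of the chemokine values. Cxcl5 stood at 151 CPM in rule cells against 8.71 CPM in other cells, yet 5 of the 133 cells had a UMI of it and 3 of them held 99.2% of its UMIs. Without those 3 cells the log2 ratio of Cxcl5 was -2.59. Ccl5 stood at 165 CPM in rule cells against 13.8 CPM in other cells, with 279 of its 291 UMIs in 1 cell, and its log2 ratio without the 3 cells richest in it was -2.40. Ppbp, the precursor of the chemokine CXCL7, had 49.4% of its UMIs in 3 of the 19 rule cells that carried it. It kept a log2 ratio of 1.43 without them. Cxcl3, by contrast, was found in 125 rule cells, and the 3 richest held 8.57% of its UMIs.

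**Figure D2:**
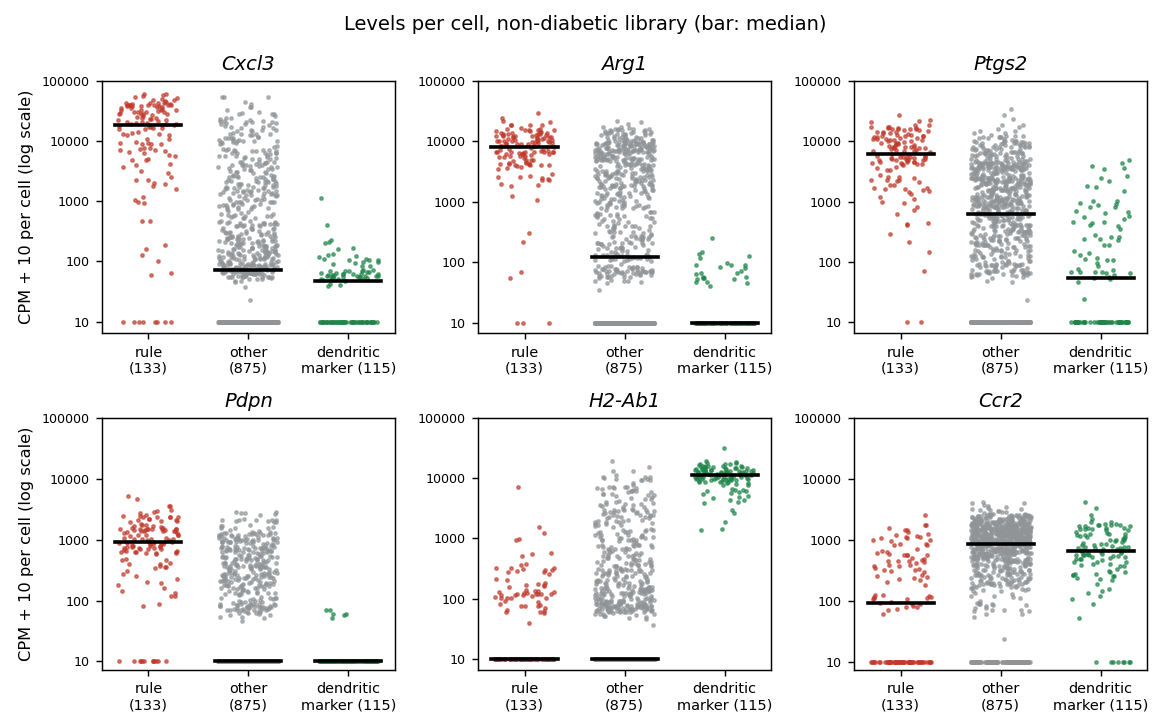
Level per cell (vertical, CPM with 10 added, log scale) of 6 genes in the non-diabetic library, for the 133 rule cells (left), the 875 other cells without dendritic markers (middle) and the 115 cells with dendritic markers (right); black bars are medians. Cxcl3, Arg1, Ptgs2 and Pdpn have higher medians in rule cells than in either other group, H2-Ab1 is highest in cells with dendritic markers, and Ccr2 has a lower median in rule cells.

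Interleukin-1 and other inflammatory cytokines were high in the same cells. Il1b reached 13601 CPM in rule cells and 4404 CPM in other cells, 3.09-fold higher (3.04 to 3.14). Il1a, the sister cytokine that acts from the cell surface and from damaged cells, stood at 1209 CPM in rule cells against 124 CPM in other cells (9.76-fold, 9.15 to 10.4). Il23a, a subunit of interleukin-23, stood at 97.5 against 13.8 CPM, and Tnf at 1415 against 575 CPM. Il23a was found in 29 rule cells, and 3 of them held 40.7% of its UMIs. Among other cells, 1 cell held 76 of its 189 UMIs. The Il23a log2 ratio of 2.82 was 2.10 without those 3 rule cells and 3.55 without that other cell. Csf3, the neutrophil growth factor G-CSF, stood at 151 CPM in rule cells against 12.6 CPM in other cells, with 54.7% of its UMIs in 3 cells. Of 17 measured cytokine genes, 11 were at least 2-fold higher and 3 at least 2-fold lower (median log2 ratio 1.17, and 1.60 relative to all genes). The lower ones were Ebi3, Tnfsf10 and Il27, all at 2.27 CPM or less in rule cells.

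Of the enzymes on the way to prostaglandin E2, Ptgs2, Ptges and Pla2g4a were higher and the synthase gene Ptges2 was lower. Per cell, Ptgs2 (the inducible cyclooxygenase COX-2) had a median of 6186 CPM in rule cells and of 497 CPM in other cells. Summed, it reached 7254 CPM in rule cells and 1493 CPM in other cells (4.86-fold, 4.75 to 4.97). Ptges, the terminal synthase for prostaglandin E2, stood at 204 CPM in rule cells against 9.37 CPM in other cells (21.7-fold, 17.8 to 26.9), with UMIs in 45 rule cells. Pla2g4a, the phospholipase that releases arachidonic acid, stood at 151 against 47.8 CPM. Other genes of the 13 measured in the eicosanoid list went the other way, with 3 at least 2-fold higher and 5 lower, namely Ptges2, Hpgds, Alox5, Lta4h and Hpgd. Hpgd, which breaks prostaglandins down, counted 1 of the 1764720 UMIs in rule cells against 246 of the 13664553 UMIs in other cells. Lta4h, an enzyme of leukotriene B4 synthesis, stood at 21.5 CPM in rule cells against 47.9 CPM in other cells. The list median log2 ratio was -0.27, and 0.16 relative to all genes.

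Arginine metabolism showed both of its competing enzymes at higher levels. Arg1, arginase 1, had a median per cell of 8029 CPM and a highest value of 29014 CPM in rule cells, against a median of 59.2 CPM and a highest value of 21738 CPM in other cells. The groups overlapped, since 0 occurred in both. Summed, Arg1 reached 8557 CPM in rule cells and 1693 CPM in other cells (5.05-fold, 4.95 to 5.16), and it was present in 130 of the 133 rule cells. Nos2, the inducible nitric oxide synthase that uses the same substrate, stood at 295 CPM in rule cells against 24.9 CPM in other cells (11.8-fold, 10.3 to 13.6) and was found in 48 rule cells. The arginine transporter Slc7a2 stood at 50.4 against 6.66 CPM, and the spermine oxidase gene Smox at 567 against 180.1 CPM. Of 17 measured genes of arginine and polyamine metabolism, 6 were at least 2-fold higher and 3 at least 2-fold lower, with a median log2 ratio of 0.38 (0.81 relative to all genes). The lower ones were Srm, Slc7a1 and Paox, with Srm, spermidine synthase, at 0.567 CPM in rule cells against 17.5 CPM in other cells.

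Hypoxia-inducible and glycolytic genes were higher as groups. Ero1l, an oxidase of the endoplasmic reticulum, stood at 572 CPM in rule cells against 125 CPM in other cells (4.59-fold, 4.24 to 4.96). The mitophagy receptor gene Bnip3 stood at 441 against 120.0 CPM, the oxygen sensor Egln3 at 104 against 24.0 CPM, and Vegfa, the vascular growth factor, at 953 against 372 CPM. Of 17 measured hypoxia-inducible genes, 8 were at least 2-fold higher and 1 lower (median log2 ratio 0.97, and 1.40 relative to all genes). The lower one, Car9, stood at 0 CPM in rule cells against 2.42 CPM in other cells. Among 18 measured glycolysis genes the median log2 ratio was 0.71 (1.14 relative to all genes), with 4 at least 2-fold higher, namely Slc2a1, Hk1, Pgk1 and Pdk1. Pgk1 stood at 1370 CPM in rule cells against 564 CPM in other cells, the glucose transporter Slc2a1 at 282 against 129 CPM, and Gapdh at 4943 against 2849 CPM. Pfkfb4 was the lower member, at 10.8 CPM in rule cells against 23.3 CPM in other cells.

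Matrix, protease and coagulation genes spanned a wide range of levels, with Thbs1 among the most abundant transcripts of rule cells. Thbs1, which encodes the matrix glycoprotein thrombospondin 1, had a median per cell of 12660 CPM in rule cells and of 1555 CPM in other cells. Summed, it reached 13404 CPM in rule cells and 3246 CPM in other cells (4.13-fold, 4.06 to 4.20). Serpinb2, the plasminogen activator inhibitor PAI-2, stood at 623 CPM in rule cells against 40.5 CPM in other cells (15.4-fold, 13.9 to 17.0), with UMIs in 53 rule cells. Plaur, the urokinase receptor, stood at 1206 CPM in rule cells against 344 CPM in other cells. Spp1, osteopontin, stood at 2682 CPM in rule cells against 1051 CPM in other cells. Of 22 measured genes of the list, 9 were at least 2-fold higher and 3 lower (Lox, Sparc and Ctsk), with a median log2 ratio of 0.75 (1.18 relative to all genes). Of the 827 Sparc UMIs in other cells 784 lay in 1 cell, and without that cell its log2 ratio was 1.03. Likewise 1 cell held 208 of the 303 Ctsk UMIs in other cells, and without it the log2 ratio was -0.10. The tetraspanin gene Cd9 stood at 1467 CPM in rule cells against 310 CPM in other cells (4.74-fold, 4.51 to 4.98).

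The list of growth factors for repair held genes on both sides of 2-fold. The epidermal growth factor receptor ligands Hbegf, Areg and Ereg were higher, at 157, 238 and 50.4 CPM in rule cells against 18.4, 31.0 and 1.98 CPM in other cells. Areg was found in 22 rule cells and Ereg in 10, and 3 cells held 53.3% of the Areg and 75.3% of the Ereg UMIs. Without the 3 cells richest in each, the log2 ratio of Areg was 1.88 in place of 2.94 and that of Ereg 2.71 in place of 4.66. Vegfa and Pdgfc were the other higher members. Igf1, at 0 UMIs in rule cells against 9.29 CPM in other cells, and Gdf15, at 9.63 against 46.6 CPM, were lower. So were Gdf3, Wnt11 and the receptor gene Nrp1. In all, 5 of 16 measured members were at least 2-fold higher and 5 at least 2-fold lower, against 5.76% and 26.6% of all measured genes. The median log2 ratio of -0.05 was 0.38 relative to all genes. Of 19 measured genes of activin and TGF-beta signalling, Inhba itself was at least 2-fold higher, and Fstl1 and Tgfbr2 were lower. Acvr1b, a type I activin receptor, stood at 11.3 CPM in rule cells against 10.3 CPM in other cells, and Acvr2a, a type II receptor, at 7.37 against 14.3 CPM. Smad7, a feedback inhibitor, stood at 86.1 against 49.3 CPM. Fst stood at 6.23 CPM in rule cells against 4.76 CPM in other cells, bounded above by the rule.

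Around Nt5e, the adenosine receptor gene Adora2a was higher, at 49.3 CPM in rule cells against 15.4 CPM in other cells (3.22-fold, 2.47 to 4.14). Entpd1, which encodes CD39 and supplies the AMP that CD73 uses, stood at 104 against 68.7 CPM. Of 17 measured genes of the purine and adenosine list, 2 were at least 2-fold higher, of which Nt5e was selected by the rule, and 6 lower (median log2 ratio -0.61, and -0.18 relative to all genes). Checkpoint ligands were higher beside Tnfrsf9. Cd274, PD-L1, stood at 260.1 CPM in rule cells against 58.9 CPM in other cells (4.42-fold, 3.93 to 4.96), Pdcd1lg2, PD-L2, at 23.8 against 5.78 CPM, and Cd80, a ligand of CD28 and CTLA-4, at 185 against 71.4 CPM. Cd86, the related ligand, stood at 133 against 179 CPM. Cd48 and Cd40 were lower, at 24.9 and 8.50 CPM in rule cells against 128 and 24.4 CPM in other cells. Of the 17 measured costimulatory genes, 5 were at least 2-fold higher, with Havcr2 beside those named and Tnfrsf9 selected by the rule, and 5 lower, with Icosl, Tnfsf4 and Tnfrsf18 beside those named.

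Innate receptors were at least 2-fold higher in 10 of 22 measured genes and lower in Tlr1 and Trem2 (median log2 ratio 0.89, and 1.32 relative to all genes). Fpr1, the formyl peptide receptor, stood at 148 CPM in rule cells against 22.2 CPM in other cells, Cd14, the co-receptor for endotoxin, at 4695 against 1790.2 CPM, and Tlr4 at 87.3 against 32.9 CPM. Feedback genes of NF-kB signalling shifted less. Tnfaip3, the inhibitor A20, stood at 1116 CPM in rule cells against 581 CPM in other cells, and Nfkbia, the inhibitor IkB alpha, at 5701 against 3383 CPM. Of the 19 measured NF-kB genes 0 were at least 2-fold higher and 1, Tnip3, was lower, with a median log2 ratio of 0.32 (0.75 relative to all genes). Interferon-induced genes were not higher, with 0 of 23 at least 2-fold higher and 4 lower (Ifit2, Ifit3, Ifit3b and Mx1). Their median log2 ratio of -0.28 turned to 0.15 relative to all genes and 0.01 under TMM scaling.

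**Figure D3:**
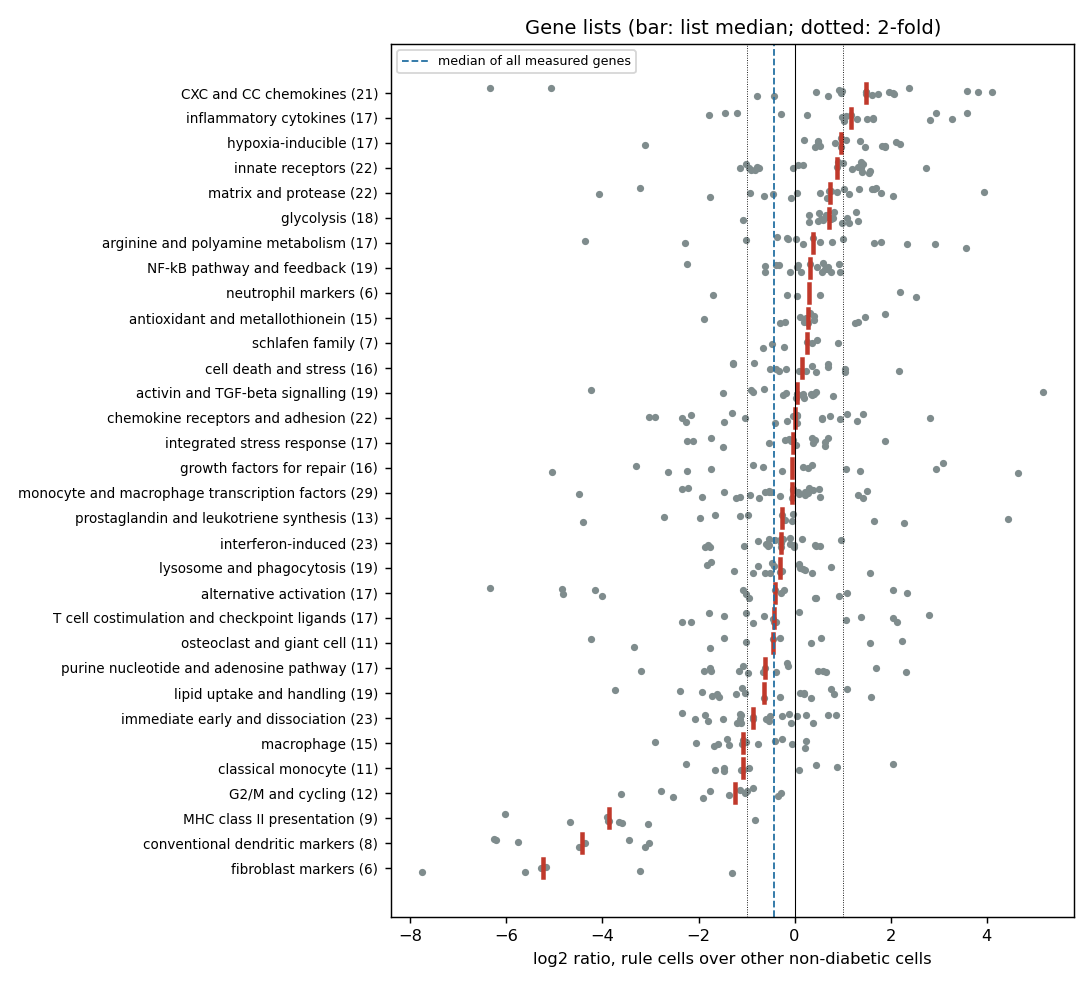
Log2 ratio of rule cells over other non-diabetic cells (horizontal) for each measured gene (grey points) of the gene lists with at least 6 measured genes, whose number is in brackets; red bars are list medians, dotted lines mark 2-fold, and the dashed blue line marks the median of all measured genes at -0.43. Chemokine, cytokine and hypoxia lists lie highest, and MHC class II, dendritic and fibroblast lists lie lowest.

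Antigen presentation genes were low. H2-Ab1, a chain of the MHC class II molecule, stood at 202 CPM in rule cells against 2442 CPM in other cells (12.1-fold lower, 10.9 to 13.5), and 55.3% of its UMIs in rule cells came from 3 of them. Cd74, the invariant chain, stood at 860 CPM in rule cells against 7120 CPM in other cells, and Ciita, the master regulator of class II genes, at 0.567 against 55.3 CPM. Of the 9 measured genes 8 were at least 2-fold lower, and the list median log2 ratio was -3.86. The 115 other cells with 3 or more UMIs of Cd209a, Klrd1 and Flt3 together held H2-Ab1 at 10672 CPM, and without them the other cells stood at 680 CPM and the list median at -1.78. The lectin gene Clec10a, which shares 96.4% of 727 bases with Mgl2, stood at 6.23 CPM in rule cells against 116 CPM in other cells and 22.7 CPM in other cells without dendritic markers.

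Many genes of freshly recruited monocytes and of mature macrophages were lower. Ccr2, the receptor for CCL2, stood at 336 CPM in rule cells against 929 CPM in other cells (2.76-fold lower, 2.55 to 3.01), with a median per cell of 83.3 CPM against 801 CPM. Ly6c2 stood at 68.0 CPM in rule cells against 216 CPM in other cells. Of the 11 classical monocyte genes 6 were at least 2-fold lower and 1, Thbs1, was higher. Among the 15 macrophage genes 9 were at least 2-fold lower and 0 higher. Adgre1, which encodes F4/80, stood at 35.7 CPM in rule cells against 108 CPM in other cells, Cx3cr1, the fractalkine receptor, at 7.37 against 57.4 CPM, and C1qb, a complement subunit, at 108 against 451 CPM. Lyz2, the lysozyme gene of myeloid cells, stood at 3904 CPM in rule cells against 12892 CPM in other cells. The medians of the monocyte and macrophage lists, -1.08 and -1.06, were -0.65 and -0.63 relative to all genes.

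The rule cells nevertheless carried myeloid genes. Csf1r, the receptor for macrophage colony-stimulating factor, stood at 263 CPM in rule cells against 348 CPM in other cells, a log2 ratio of -0.40 that is 0.03 relative to all genes, and 106 of the 133 cells held a UMI. Itgam, CD11b, was found in 132 of them. Of 29 measured monocyte and macrophage transcription factors, 3 were at least 2-fold higher and 7 lower (median log2 ratio -0.06, and 0.37 relative to all genes). Id2 was higher, at 732 CPM in rule cells against 259 CPM in other cells, as was Tfec, at 99.2 against 37.2 CPM. Batf, Cebpa and Nr4a1 were among the lower ones, with log2 ratios of -2.34, -1.46 and -1.13.

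Summed markers of other cell types ranged from 0 to 780 CPM in rule cells. All 9 markers of T and NK cells counted 0 UMIs in rule cells, which allows up to 3 among the 1764720, and 5 UMIs in other cells. The 11 dendritic markers summed to 11.3 CPM in rule cells against 344 CPM in other cells, with 5 of them at 0. Neutrophil markers summed to 780 CPM in rule cells against 221 CPM in other cells, most of it from S100a8 at 613 against 106 CPM, while Ly6g, Ngp and Camp were at 0. Of the S100a8 UMIs, 72.5% lay in 3 rule cells, and without these 3 its log2 ratio was 0.70. The 4 Langerhans cell markers summed to 356 CPM in rule cells against 136 CPM in other cells, nearly all from Cd24a at 342 against 124 CPM and in 99 of 133 rule cells, while Cd207 and Epcam were at 0. The 6 endothelial markers summed to 72.0 CPM in rule cells against 21.8 CPM in other cells, most of it from Pecam1 at 68.6 against 16.5 CPM and in 47 rule cells, while Cdh5 and Emcn were at 0. The part of these markers in the results was not tested. The 7 fibroblast markers summed to 11.3 CPM in rule cells against 329 CPM in other cells, but 1 other cell held 1521 of the 1540 Col1a1 UMIs. Without that cell Col1a1 stood at 2.83 CPM in rule cells against 1.40 CPM in other cells. Cycling genes summed to 20.97 CPM (37 UMIs) in rule cells against 63.3 CPM (865 UMIs) in other cells. Their median log2 ratio of -1.25 depended on the setting. It ranged from -2.05 after thinning to -0.20 against other cells of like depth. Genes that respond to tissue digestion were lower, with Fos at 502 CPM in rule cells against 1150 CPM in other cells and Hspa1a at 607 against 2546 CPM. Of 23 such genes, 0 were at least 2-fold higher and 10 lower (median log2 ratio -0.87, and -0.44 relative to all genes).

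Levels of some genes were graded along the number of Inhba UMIs in a cell, and those of others were not. The 1123 filtered non-diabetic cells were split into those with 0, 1 to 2, 3 to 9, 10 to 29 and 30 or more Inhba UMIs, holding 857, 99, 64, 35 and 68 cells. Median depth in these classes lay between 11005 and 14397 UMIs. Cxcl3 stood at 902, 3632, 9560.1, 15447 and 26774 CPM in this order, a step up at each class. Serpinb2 stood at 12.2, 118, 154, 429 and 1127 CPM, and Pdpn at 108, 317, 535, 753 and 1331 CPM. Arg1 stepped up less steeply, at 1459, 3503, 5898, 6865 and 8999.9 CPM. In the other direction, Ccr2 stood at 976, 655, 584, 400.4 and 142 CPM, and H2-Ab1 at 2656, 1068, 580, 171 and 103 CPM. The cells with dendritic markers, which were rich in H2-Ab1, were kept in these classes. Their part in the steps of H2-Ab1 was not tested. Other genes that were higher in rule cells did not step up at each class. Ptges stood at 5.62, 26.1, 79.8, 70.0 and 312 CPM, Nos2 at 13.1, 134, 89.1, 130.3 and 431 CPM, and Il1b at 3873, 7026, 11498, 10645 and 15649 CPM. Il1a and Hbegf also dipped in the class of 10 to 29, and Cxcl5 and Ccl5 followed no order. Slfn4 was not graded, at 106, 106, 196, 181 and 104 CPM, nor was Csf1r, between 252 and 351 CPM. The 32 cells with 3 or more Inhba UMIs but under 2 companion UMIs had 1899 CPM of Inhba, 8907 CPM of Cxcl3, 645 CPM of Serpinb2 and 2547 CPM of Arg1.

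**Figure D4:**
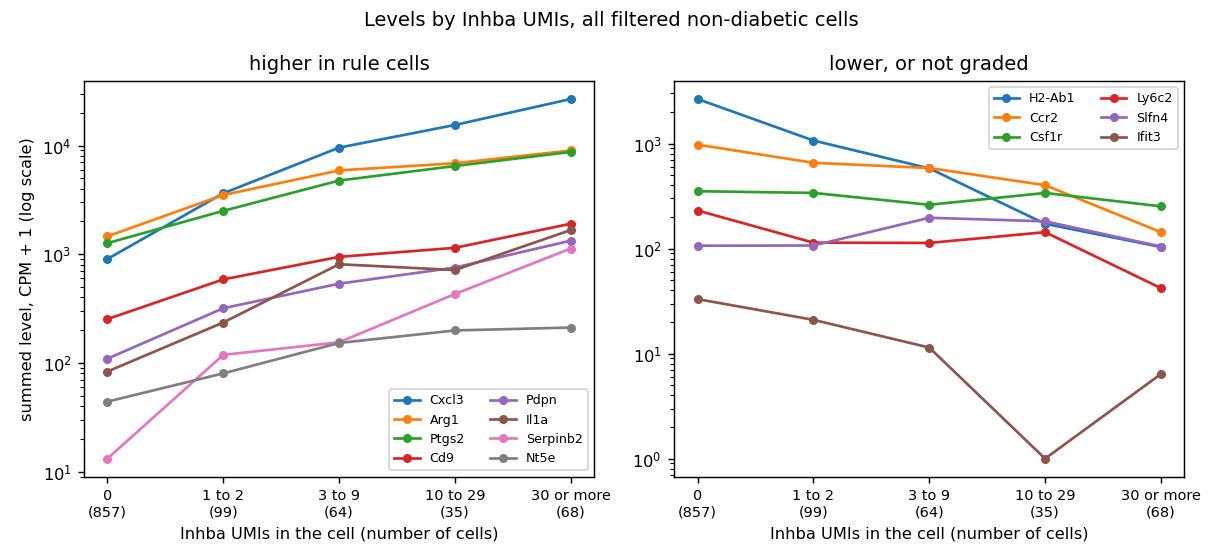
Summed level (vertical, CPM with 1 added, log scale) of genes in all filtered non-diabetic cells, split by the Inhba UMIs in the cell (horizontal, number of cells in brackets). Cells with dendritic markers, rich in H2-Ab1, are included. Genes higher in rule cells (left) step up along the classes, with 902 CPM in the first and 26774 CPM in the last for Cxcl3, except Il1a in the class of 10 to 29, whereas H2-Ab1 and Ccr2 (right) step down and Slfn4 does not follow the order.

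Chemokine and ferritin transcripts were among those with the highest variance over mean among rule cells, a measure that tends to be larger for abundant genes. In cells thinned to 5000 UMIs, the variance over the mean was 121 for Ccl5, carried by 3 of 121 cells, and 115 for S100a8. Among genes present in nearly all cells it was 85.5 for Fth1, 70.3 for Cxcl3, 46.3 for Cxcl2 and 41.3 for Malat1. Over the same 121 cells, the Spearman correlation of Inhba was 0.47 with Cxcl3, 0.24 with Arg1 and 0.08 with Cd14, as a description of cells of 1 library. The strongest of the 10 correlations computed, 0.52, was between Ckap2l and Il1a. Ckap2l encodes a spindle protein of dividing cells. Of 12 measured cycling genes 0 were at least 2-fold higher in rule cells, which is near the 5.76% of all measured genes. Ckap2l stood at 198 CPM in rule cells against 21.1 CPM in other cells. Its annotated gene on chromosome 2 (GENCODE M21, mm10, 129268210 to 129297212, minus strand) begins 2397 bases beyond the end of Il1a (129299610 to 129309972) on the same strand. Whether the UMIs counted for Ckap2l come from Ckap2l transcripts was not tested, so the value may not measure that gene.

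The promoters of the 20 genes with the highest ratios at 100 CPM or more in either group, with Nt5e and Slfn4, were read in the 250 bases before the transcript start from RefSeq (GRCm38.p6). Windows were matched for 17 of the 22 genes, 21 windows in all, and motifs were sought on both strands. The AP-1 motif TGANTCA was found in 7 of the 21 windows (33.3%), of Il1a, Serpinb2, Slfn4, Tnfrsf9 and Upp1, against 6.75% of all 32851 windows, where Serpinb2 and Upp1 each count with 2 overlapping windows that hold the same letters. The NF-kB decamer was found in 3 windows (14.3%) against 7.25% of all. The hypoxia core, ACGTG or GCGTG, was in 9 of them (42.9%) against 38.6% of all. TTGCNNCAA (C/EBP) and GAAANNGAAA (interferon-stimulated) were in 0 of the 21 windows, against 1.74% and 2.98% of all, and TGACGTCA (CRE) in 1, of Areg. Some windows are shown to place these letters, Inhba and Cxcl3 for the leading genes and the others for AP-1, in lower case with motif letters in capitals, 5′ to 3′ on the gene's strand. A match is a description of letters, not of binding.
Inhba, chr13:16011601-16011850, plus strand: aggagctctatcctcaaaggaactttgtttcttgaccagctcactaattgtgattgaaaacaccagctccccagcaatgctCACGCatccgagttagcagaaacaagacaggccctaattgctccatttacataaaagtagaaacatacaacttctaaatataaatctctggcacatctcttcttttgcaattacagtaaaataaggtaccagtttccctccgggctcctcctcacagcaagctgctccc
Cxcl3, chr5:90785851-90786100, plus strand: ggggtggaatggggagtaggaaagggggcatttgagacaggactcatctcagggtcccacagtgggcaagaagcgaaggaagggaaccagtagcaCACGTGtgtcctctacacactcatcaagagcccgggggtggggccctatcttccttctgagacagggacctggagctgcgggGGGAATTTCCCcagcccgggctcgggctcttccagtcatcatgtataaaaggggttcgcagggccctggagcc
Il1a, chr2:129309973-129310222, minus strand: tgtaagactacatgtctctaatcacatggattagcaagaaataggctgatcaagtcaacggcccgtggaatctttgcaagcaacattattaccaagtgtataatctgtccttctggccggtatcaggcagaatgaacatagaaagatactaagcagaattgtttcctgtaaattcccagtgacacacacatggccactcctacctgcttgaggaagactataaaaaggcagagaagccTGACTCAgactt
Tnfrsf9, chr4:150927749-150927998, plus strand: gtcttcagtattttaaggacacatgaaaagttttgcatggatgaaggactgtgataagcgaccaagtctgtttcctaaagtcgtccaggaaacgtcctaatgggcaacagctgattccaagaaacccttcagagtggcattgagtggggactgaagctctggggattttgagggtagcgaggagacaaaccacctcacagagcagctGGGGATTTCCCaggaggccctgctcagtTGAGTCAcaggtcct
Slfn4, chr11:83174936-83175185, plus strand: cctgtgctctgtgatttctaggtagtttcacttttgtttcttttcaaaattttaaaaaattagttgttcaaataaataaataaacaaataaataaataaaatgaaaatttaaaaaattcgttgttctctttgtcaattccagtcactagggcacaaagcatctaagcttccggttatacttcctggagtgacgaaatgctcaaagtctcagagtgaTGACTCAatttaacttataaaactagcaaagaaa
The capitals mark a hypoxia core in Inhba, an NF-kB match and a hypoxia core in Cxcl3, AP-1 in Il1a and Slfn4, and both NF-kB and AP-1 in Tnfrsf9, where the AP-1 match lies 15 to 9 bases before the start. For Cxcl3 the RefSeq start did not match the start of a GENCODE M21 transcript. Slfn4 is 96.2% identical to Slfn3 over 1172 bases of transcript, so their counts may be split between them.

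The diabetic cells that met the rule were set against the other diabetic cells in the same way, and again the rule used the contrast. Of 11659 measured genes 725 (6.22%) were at least 2-fold higher and 1743 (14.9%) lower, with a median log2 ratio of -0.21. Cxcl3 stood at 10579 CPM in the 38 diabetic rule cells against 3415 CPM in the other 1717 diabetic cells, Arg1 at 4323 against 1820 CPM, Pdpn at 385 against 110 CPM, and H2-Ab1 at 319 against 1494 CPM. Over hypoxia-inducible genes 8 of 19 measured were at least 2-fold higher and 1 lower, and over MHC class II genes 8 of 9 were lower. Diabetic rule cells had 8494 CPM of S100a8 and 4422 CPM of S100a9, against 613 and 90.7 CPM in non-diabetic rule cells. S100a8 also stood at 3803 CPM in the other diabetic cells. S100a9 had UMIs in 11 of the 38 diabetic rule cells, with a median of 0, a 90th percentile of 222 CPM and a highest value of 29208 CPM, so few cells carried its sum. Of the neutrophil markers, 6 of 7 were at least 2-fold higher in diabetic rule cells than in other diabetic cells. Ppbp went the opposite way, at 36.5 CPM in diabetic rule cells against 89.5 CPM in other diabetic cells.

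The non-diabetic rule cells were also set against the 47 diabetic cells with 3 or more Inhba UMIs and 5 or more UMIs of Stfa3 and Fst, which the rule leaves out. Differences here include those between the libraries, so values of the other cells of each library are given beside them. Among 7045 genes with at least 20 UMIs over both groups together, 824 (11.7%) were at least 2-fold higher in the non-diabetic rule cells. Another 949 (13.5%) were at least 2-fold lower, and the median log2 ratio was -0.11. The groups summed to 1764720 and 963931 UMIs. A gene near 0 in 1 group can pass this filter through the other group alone. The list counts below are therefore partly set by the filter. Both groups shared high Cxcl3, at 20136 CPM in non-diabetic rule cells against 21422 CPM in these diabetic cells, and Il1a, at 1209 against 1253 CPM. Of the interferon-induced genes 20 of 20 measured were at least 2-fold higher in the non-diabetic rule cells (median log2 ratio 2.98). Rsad2 stood at 145 CPM in non-diabetic rule cells against 2.07 CPM in the diabetic cells. In the other cells it stood at 74.0 CPM in the non-diabetic against 12.6 CPM in the diabetic library. Over other non-diabetic cells Rsad2 had the highest log2 ratio of its list, 0.97, and 0.31 without the 3 rule cells richest in it. Those 3 cells held 38.3% of its UMIs in rule cells. Of the 23 genes measured in that contrast, 0 were at least 2-fold higher and 4 lower. Schlafen genes were 2-fold or more higher in 5 of 5, which include Slfn4, a gene of the rule, with Slfn5 at 155 against 15.6 CPM. In the other cells Slfn5 stood at 244 CPM in the non-diabetic against 81.1 CPM in the diabetic library, and Slfn4 at 102 against 9.26 CPM. Monocyte genes were higher in 8 of 11, with Ccr2 at 336 against 28 CPM and Ms4a4c at 228 against 4.15 CPM. In the other cells Ccr2 stood at 929 CPM in the non-diabetic against 466 CPM in the diabetic library, and Ms4a4c at 497 against 151 CPM. Vegfa stood at 953 CPM in non-diabetic rule cells against 210 CPM in the diabetic cells, and Ccl2 at 2232 against 179 CPM. In the other cells Vegfa stood at 372 CPM in the non-diabetic against 196 CPM in the diabetic library, and Ccl2 at 793 against 402 CPM. Lower in the non-diabetic rule cells were neutrophil markers, in 5 of 5 measured, and antioxidant genes, in 9 of 15. S100a8 stood at 613 CPM in non-diabetic rule cells against 18633 CPM in the diabetic cells, Mt2, a metallothionein, at 61.8 against 1359 CPM, Ptges at 204 against 1114 CPM, Nos2 at 295 against 1071 CPM and Csf3 at 151 against 1260.5 CPM. The other cells differed between the libraries in the same direction, with S100a8 at 106 CPM in the non-diabetic against 3803 CPM in the diabetic library, Mt2 at 25.9 against 366 CPM, Ptges at 9.37 against 198 CPM, Nos2 at 24.9 against 198 CPM and Csf3 at 12.6 against 211 CPM. Whether any of these differences is larger in the Inhba cells than in the other cells was not tested. The Inhba level itself was 2519 CPM in non-diabetic rule cells against 556 CPM in these diabetic cells.

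**Figure D5:**
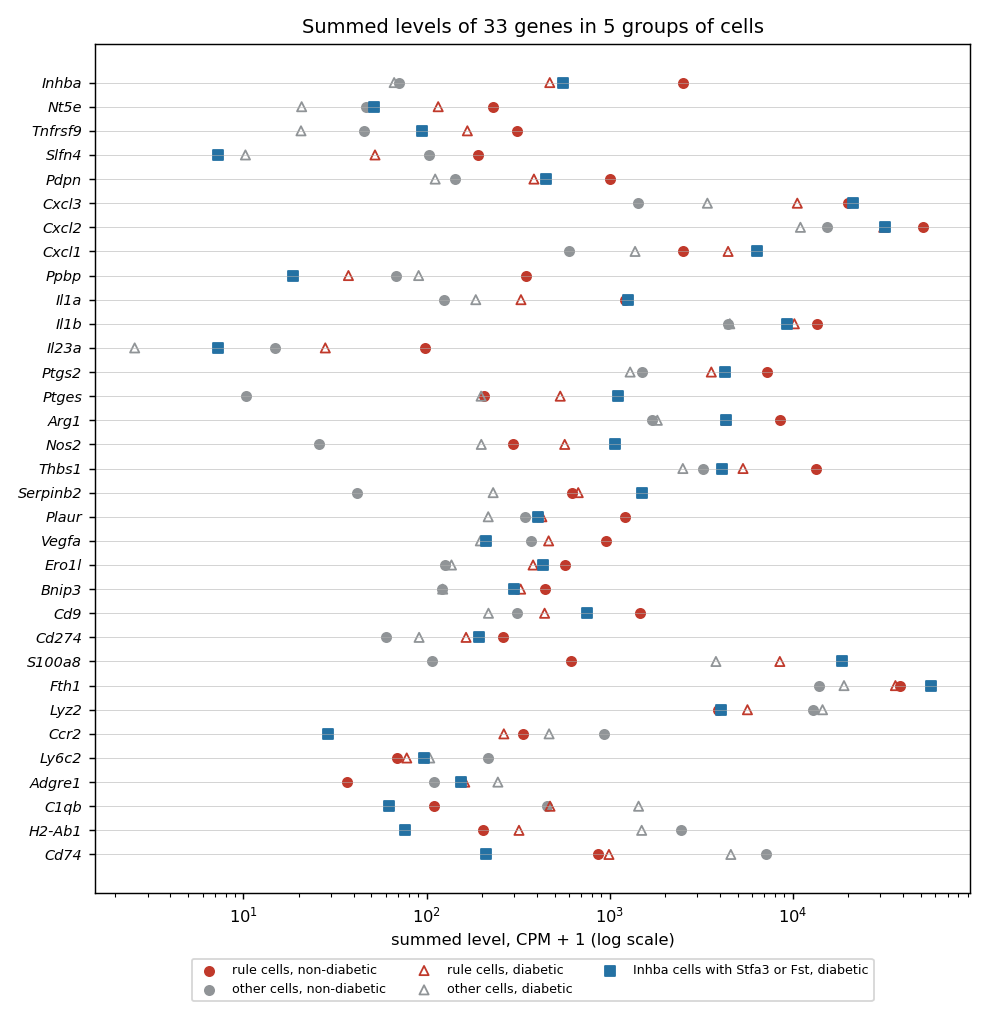
Summed level (horizontal, CPM with 1 added, log scale) of named genes in non-diabetic rule cells (filled red), other non-diabetic cells (filled grey), diabetic rule cells (open red triangles), other diabetic cells (open grey triangles) and diabetic cells with Inhba and Stfa3 or Fst (blue squares). Inhba, Pdpn, Thbs1 and Vegfa are highest in non-diabetic rule cells, and S100a8, Ptges and Nos2 are highest in the diabetic cells with Stfa3 or Fst.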

How the data were processed

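Wound skin was digested, and 1 droplet library (10x, polyA, 3' end) was prepared per group, according to the protocols in the labels. The files deposited are unnormalized UMI counts, which the authors made with Cell Ranger 3.0.2, per the file headers, aligned to mm10 as the submitters' processing notes state. Which gene annotation was used is not given in the sources used here. Listed are 2026 non-diabetic and 2214 diabetic barcodes, with 17559986 and 31730014 UMIs, over 31053 genes. Among them 71 entries shared a symbol.

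Counts were summed over cells and divided by the group total. Log2 ratios used sums with 0.5 added, and folds are these ratios. Intervals are Clopper-Pearson for shares and conditional exact binomial for ratios, and were tested on simulated Poisson sums. Thinning used 5000 UMIs per cell, leaving out 12 rule cells and 129 other cells of lower depth. Named genes were the rule genes, the 20 highest and 12 lowest ratios at 100 CPM or more, up to 6 members of each list at 20 CPM or more, and the 15 most variable among members. Further list members are named where a count of 5 or fewer covers them or for context, chosen after their values were seen. The members, the 40 lists and the comparisons were chosen with earlier results of these data known. Near copies were sought with BLAST 2.17.0 at 95% identity over 200 bases, which marked Clec10a with Mgl2 and H2-DMb1 with H2-DMb2. Calculations used Python 3.11.15 and edgeR 4.0.16 for TMM. Alternatives covered the filter, rule, depth, doublets, scaling, count filter and choice of other cells.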

Additional observations from a re-analysis of the deposited data

Results flagged for a closer look

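A pair of chemokines and a pair of interferon-induced genes lay on opposite sides in the libraries, at least 2-fold higher in rule cells over other cells in 1 library and at least 2-fold lower in the other. The difference between the libraries was not tested. Ppbp had a log2 ratio of 2.38 in the non-diabetic library, at 347 CPM in rule cells against 66.9 CPM in other cells, and of -1.27 in the diabetic library, at 36.5 against 89.5 CPM. It was carried by 19 non-diabetic and 8 diabetic rule cells. Ccl5 had a log2 ratio of 3.58 in the non-diabetic library, at 165 CPM in rule cells against 13.8 CPM in other cells. In the diabetic library it was at 0 UMIs in the 38 rule cells against 11.1 CPM in other cells, where the fitted -4.04 depends on the added 0.5 and is no bound. The non-diabetic value rests on 279 of 291 UMIs in 1 cell.

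Ifit3 had log2 ratios of -1.86 in the non-diabetic library, at 7.93 CPM in rule cells against 29.9 CPM in other cells, and of 1.09 in the diabetic library, at 17.6 against 8.55 CPM. Ifit2 had -1.04 in the non-diabetic library, at 10.8 CPM in rule cells against 22.8 CPM in other cells, and 2.05 in the diabetic library, at 21.6 against 5.35 CPM. The diabetic values rest on 13 Ifit3 UMIs in 3 rule cells and 16 Ifit2 UMIs in 2 rule cells.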

How the results depend on the processing

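The share of rule cells in the non-diabetic library, 11.8%, was 9.35% with a filter of 200 genes and 20% mitochondrial UMIs, 9.53% with 4 or more companion UMIs and 7.74% after thinning. In the diabetic library the 2.17% became 3.08% and 1.48% with Inhba at 2 or 5 UMIs or more, 3.30% and 1.31% with companions at 1 or 4 or more, 3.53% with no condition on Stfa3 and Fst, and 0.542% after thinning. Among genes, 612 were at least 2-fold higher in the main count, 966 with TMM scaling, 3155 of 16069 with no count filter and 1218 when centred on the median of all genes, and 2823 lower genes became 1671 when centred. Higher genes made up 17.8% of those past 2-fold in the main count, 32.8% with TMM, 48.1% with no count filter and 42.2% when centred. Centring and the leaving out of single cells were chosen after seeing the data.

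Stromal genes turned direction with the choice of other cells. For each of Col1a1, Sparc, Col3a1 and Ctsk, 1 other cell held most of the gene's UMIs in other cells. It was not the same cell for every gene. With other cells of like depth, the log2 ratios were 1.32 for Col1a1, 1.29 for Sparc and for the fibroblast list, 0.063 for Ctsk and 0.94 for Col3a1. Against other cells without an Inhba UMI they were 1.09 for Col1a1 and for the fibroblast list, 1.21 for Sparc and 0.43 for Col3a1. Ctsk did not turn there, at -1.77. Without the other cell richest in the gene they were 1.12 for Col1a1, 1.03 for Sparc and 0.54 for Col3a1. Without the 3 rule cells richest in the gene, Cxcl5 was at -2.59, Ccl5 at -2.40 and Mt2 at -0.59. Against the diabetic cells with Stfa3 or Fst, the MHC class II median of 1.41 became -0.95 after thinning, where the cause was not tested. Of the other gene values over all alternatives, 2939 kept their side of 2-fold and 136 did not, none of these with a turn of a called direction. The 2939 include 193 values under each of the 2 changes of the count filter. That filter does not enter the ratio of a gene, so these values could not change. No paired analysis was possible because each group has 1 library, and for the same reason no replicate could be left out.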

Other observations

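Of 19 measured lipid handling genes 2 were at least 2-fold higher and 9 lower in rule cells, and 9 lay above the median of all genes (median log2 ratio -0.63, and -0.20 relative to all genes). Lpl, lipoprotein lipase, stood at 22.7 CPM in rule cells against 307 CPM in other cells, and Fabp5, a fatty acid carrier, at 83.3 against 255 CPM. Abca1, the cholesterol exporter, and Cd36, a scavenger receptor, were the higher pair, at 678 and 235 CPM in rule cells against 226 and 111 CPM in other cells.

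Among 15 measured antioxidant and metallothionein genes 4 were at least 2-fold higher, namely Slc7a11, Mt2, Sod2 and Fth1, and 1, Cat, was lower. Mt2 was found in 16 rule cells, and without the 3 richest, which held 73.4% of its UMIs, its log2 ratio was -0.59. Slc7a11, the cystine importer, stood at 1572 CPM in rule cells against 424 CPM in other cells, Sod2 at 751 against 299 CPM, and catalase, Cat, at 6.23 against 24.0 CPM. Of 17 genes of alternative activation 3 were at least 2-fold higher and 7 lower, and the median log2 ratio of -0.41 was 0.02 relative to all genes. Of 7 measured Schlafen genes 0 were at least 2-fold higher or lower, with Slfn2 at 1722 CPM in rule cells against 1254 CPM in other cells.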
